A study of Mus musculus with 9 samples.

Results

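The 9 genes described here move glucose and lactate across the cell membrane and steer pyruvate at the mitochondrial gate, and they were followed in isolated mouse glomeruli, the filtering units of the kidney. They were chosen by name: the glucose transporter genes Slc2a1 and Slc2a3, the monocarboxylate transporter genes Slc16a1 and Slc16a3, the pyruvate dehydrogenase kinase genes Pdk1, Pdk2 and Pdk4, and the phosphofructokinase-2 genes Pfkfb3 and Pfkfb4. Earlier results of these data were known when that choice was made. The arrays carried 17 probes for these 9 genes, and all 9 were measured, among 24150 features tested. A feature is a gene read from its brightest probe, or a single probe where no gene name was known. Glomeruli were taken with magnetic beads (Dynabeads) from male BTBR mice at 22 weeks of age, and their total RNA was hybridised to one-colour Agilent arrays. The groups were wild-type mice on vehicle food, ob/ob mice on vehicle food and ob/ob mice on food containing enarodustat, each with 3 samples and each fed its diet for 18 weeks. The ob/ob mouse lacks working leptin and becomes obese and diabetic, and on the BTBR background it is used as a model of diabetic kidney disease. Enarodustat is an oral drug that stabilises the transcription factor HIF (hypoxia-inducible factor) by blocking the enzymes that hydroxylate it. No wild-type mice on enarodustat are among the samples, and ob/ob vehicle mice are the controls of the drug comparison. The labels do not say whether a sample is 1 mouse or a pool, so p-values measure the spread between these samples.

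Glucose enters cells through facilitative carriers, of which Slc2a1 encodes GLUT1 and Slc2a3 encodes GLUT3. Glycolysis turns it into pyruvate, and its pace is set in part by fructose 2,6-bisphosphate, the activator of phosphofructokinase that the Pfkfb enzymes make and degrade. Pyruvate is then either oxidised in mitochondria by the pyruvate dehydrogenase complex or reduced to lactate, which leaves the cell with a proton through monocarboxylate transporters, MCT1 from Slc16a1 and MCT4 from Slc16a3. The pyruvate dehydrogenase kinases phosphorylate the complex and switch it off. Slc2a1, Slc16a3, Pdk1, Pfkfb3 and Pfkfb4 are textbook targets of HIF, whereas Pdk4 is better known as a gene of fasting and fatty acid use under PPAR and FoxO factors.

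Levels below are log2 processed signal minus the 75th percentile of the same array, so that 0 lies at that percentile, and differences are log2 fold changes with their standard errors. Probes differ in how well they bind, so a level is compared only with the same probe on other arrays. The 75th percentile lay between 210.4 and 325.3 signal units, and 62.3% to 68.3% of probes were well above background on each array. A probe entered where all 3 arrays of any 1 group called it well above background, as did 13 of the 17 member probes. A change was called at an adjusted p under 0.05 from limma with Benjamini-Hochberg adjustment over all features. Podocyte markers were strong on all arrays, with medians of 3.61 to 5.07 over 10 genes, and glomerular endothelial markers likewise, at 5.08 to 5.70. The median of 20 proximal tubule markers was uneven, at 3.58 in wild-type replicate 3 and 2.45 in enarodustat replicate 2, against -2.53 in ob/ob vehicle replicate 3 and -0.56 to 0.35 in the other 6 arrays. The 3 comparisons share arrays: ob/ob vehicle enters the first and the second, enarodustat the second and the third, and wild type the first and the third. Of the arrays, 8 lay on 1 slide and enarodustat replicate 3 on another. The leading fields of the barcode in the file headers split the arrays further, into barcode groups. No enarodustat array shared a barcode group with a wild-type array. In enarodustat against wild type, mouse group and barcode group therefore cannot be told apart.

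Of the 9 members, 5 were called in ob/ob vehicle against wild-type glomeruli, where 7.55% of all features were called. Slc2a3, Slc16a3, Pdk1 and Pdk4 rose and Pdk2 fell. In enarodustat against ob/ob vehicle none of the 9 was called, and 0% of all features were (0 of 24150 by limma, with 1692 at an unadjusted p under 0.05 and a smallest adjusted p of 0.204). In enarodustat against wild type 5 members were called, where 10.2% of all features were: Slc16a3, Pdk1, Pdk4 and Pfkfb3 rose and Pdk2 fell. The members' median log2 change was 0.81, 0.21 and 0.76 in these 3 comparisons, beside 0.02, -0.03 and -0.01 over all features. With the proximal tubule markers as a covariate, 0 of the 9 members and 578 features were called in the first comparison, against 5 and 1823 without it.

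**Figure D1:**
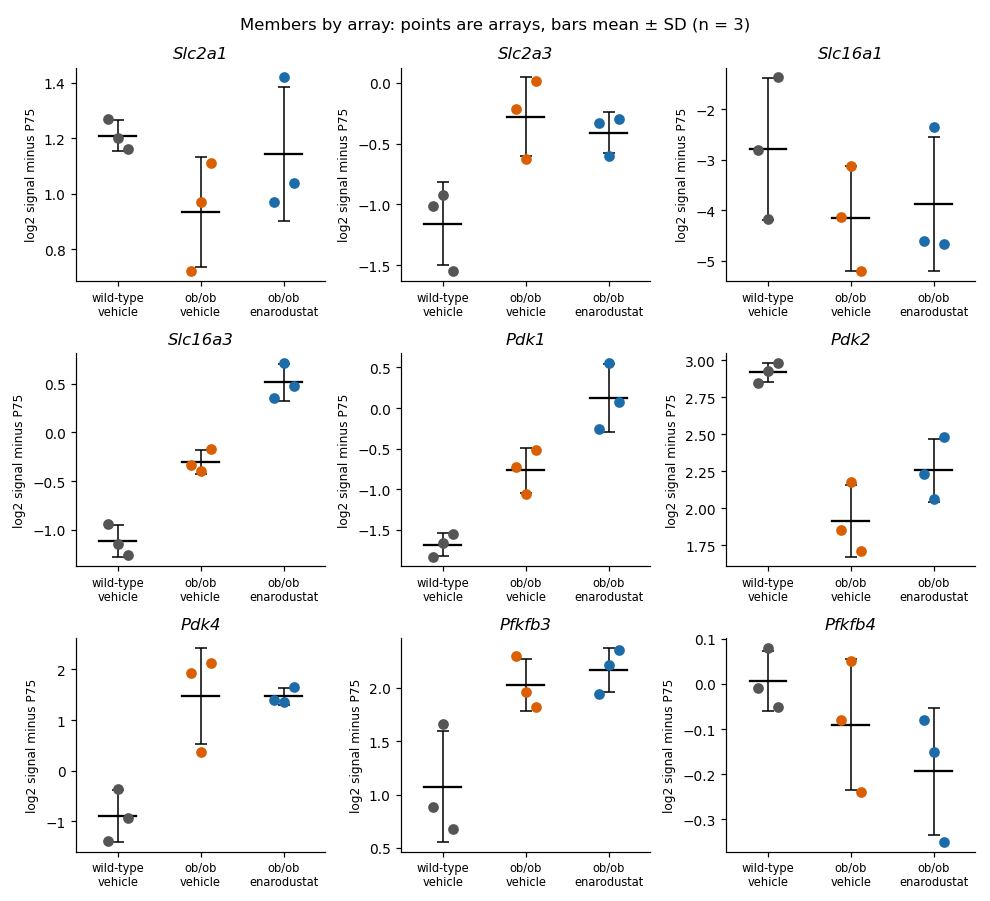
Level of each member on the 9 arrays, as log2 processed signal minus the array's 75th percentile (P75), with points for arrays and bars for mean ± SD (n = 3). Slc16a3 and Pdk1 lie in the order wild type, ob/ob vehicle, enarodustat without overlap, Pdk4 and Slc2a3 are higher in both ob/ob groups, and Pdk2 is lower in both.

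Promoter sequence was available for 8 of the 9 members from RefSeq on build GRCm38.p6, with 11 listed transcription starts, and Slc2a3 had no entry. The 250 bases before each start were searched on both strands for the core of the HIF binding site, ACGTG or GCGTG. Shown first are the promoters of Slc16a3 and Pdk1, whose levels lay in the same order across the 3 groups, and then that of Slc2a1, a HIF target that was called in no comparison. The sequences run 5′ to 3′ on the gene's own strand, which is the plus strand for all 3, and end at the base before the start. Capitals mark core matches on either strand.
Slc16a3 (chr11:120948817-120949066): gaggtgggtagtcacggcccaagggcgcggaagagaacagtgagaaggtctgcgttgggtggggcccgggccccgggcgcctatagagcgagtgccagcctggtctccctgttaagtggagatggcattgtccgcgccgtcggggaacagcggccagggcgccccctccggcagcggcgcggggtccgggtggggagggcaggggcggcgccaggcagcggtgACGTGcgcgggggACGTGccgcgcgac
Pdk1, upstream start (chr2:71872974-71873223): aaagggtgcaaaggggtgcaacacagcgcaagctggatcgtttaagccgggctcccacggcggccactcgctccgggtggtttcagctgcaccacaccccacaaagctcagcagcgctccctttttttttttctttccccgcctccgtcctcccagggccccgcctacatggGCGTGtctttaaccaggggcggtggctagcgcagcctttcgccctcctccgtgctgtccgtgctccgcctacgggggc
Slc2a1 (chr4:119108495-119108744): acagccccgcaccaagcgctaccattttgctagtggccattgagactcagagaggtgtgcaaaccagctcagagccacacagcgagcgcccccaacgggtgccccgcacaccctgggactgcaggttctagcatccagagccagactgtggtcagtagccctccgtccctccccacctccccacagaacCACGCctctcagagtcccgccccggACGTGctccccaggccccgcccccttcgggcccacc
Slc16a3 holds 2 copies of ACGTG that begin 27 and 14 bases before the start. Pdk1 holds 1 GCGTG, 78 bases before its upstream start, and no match before the other listed start. Slc2a1 holds 2 matches, 61 and 36 bases before the start. Among all members, 9 of the 11 starts held a core match (81.8%), against 38.6% of 32851 promoters of the same length. The share is a description of these windows and not of binding, and the called and uncalled members did not part by it, since each of the 8 genes had a match before at least 1 start. The E-box CACGTG, which contains ACGTG, was found at 3 starts (Slc16a1, Pdk2 and 1 of Pfkfb3) and in 6.02% of all promoters. The FoxO site GTAAACA was found at none of the 11 starts, Pdk4 included, and in 3.17% of all promoters.

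Slc16a3, the exporter of lactate from glycolytic cells, was ordered by group without overlap. Its levels were -0.94, -1.15 and -1.26 in wild type, -0.34, -0.40 and -0.17 in ob/ob vehicle, and 0.35, 0.72 and 0.48 with enarodustat. Every ob/ob vehicle array was above every wild-type array and every enarodustat array was above both. This ordered pattern, without overlap between any groups, was found for 213 features, or 0.882% of all. The difference of ob/ob vehicle from wild type was 0.81 ± 0.14 (1.75-fold, adjusted p = 0.0120, limma). Enarodustat against wild type gave 1.63 ± 0.14 (3.10-fold, adjusted p = 0.00131). Enarodustat against ob/ob vehicle gave 0.82 ± 0.14 (95% interval 0.50 to 1.14), which did not pass over all features (adjusted p = 0.377, unadjusted p = 0.000312, rank 19 of 24150 by p). The enarodustat-to-wild-type call was kept in all 25 alternative analyses, and that of ob/ob vehicle against wild type was lost in 1, with the tubule covariate (0.78, adjusted p = 0.0757). The values come from the probe at transcript position 2201, at mm9 chr11:120820023-120820082, and the other Slc16a3 probe stayed at background on all 9 arrays.

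Pdk1, the pyruvate dehydrogenase kinase induced by HIF in hypoxic cells, was likewise ordered by group. Its levels were -1.83, -1.66 and -1.55 in wild type, -0.72, -1.06 and -0.52 in ob/ob vehicle, and -0.26, 0.56 and 0.07 with enarodustat. No array of 1 group overlapped another group. Pdk1 rose by 0.92 ± 0.22 in ob/ob vehicle against wild type (1.89-fold, adjusted p = 0.0428, limma) and by 1.80 ± 0.22 in enarodustat against wild type (3.49-fold, adjusted p = 0.00371). The difference of enarodustat from ob/ob vehicle was 0.89 ± 0.22 (95% interval 0.38 to 1.39) and did not pass (adjusted p = 0.654, unadjusted p = 0.00343). The enarodustat call was kept in 24 of 25 alternatives, all but the one that read another probe. The call in ob/ob vehicle was kept when ob/ob vehicle replicate 2 or enarodustat replicate 1 or 2 was left out, and lost for each of the other 6 arrays, with adjusted p up to 0.130. Slc16a3 and Pdk1 were the only members whose enarodustat and ob/ob vehicle arrays did not overlap, 2 of 9, where 16% of all features did not overlap.

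Markers of other cells moved in the same arrays, and their part in the order of Slc16a3 and Pdk1 was not tested. Erythrocyte markers had medians of -2.35 to -1.51 in wild type, -1.92 to -0.43 in ob/ob vehicle and 0.00 to 1.32 with enarodustat. Of 7 such markers 4 were measured and 3 of them rose in enarodustat against wild type, while the remaining 3 did not pass the filter on dim probes. Distal nephron markers had medians of -2.67 to 1.20, -2.61 to 0.56 and 1.04 to 2.41 in the same order of groups, and 1 of 10 rose in enarodustat against wild type. The erythrocyte and distal nephron markers share the gene Slc4a1. Podocyte markers ran the other way, at 4.85 to 5.07, 4.13 to 4.26 and 3.61 to 4.33, with 8 of 10 lower in enarodustat against wild type. In whole glomeruli fewer cells of a type and less RNA per cell cannot be told apart. On the slide of 8 arrays, ob/ob vehicle replicate 1 shared a barcode group with the wild-type arrays. It differed from their mean by 0.78 for Slc16a3 and 0.96 for Pdk1. Another barcode group held ob/ob vehicle replicates 2 and 3 and enarodustat replicates 1 and 2. There the difference of enarodustat from ob/ob vehicle was 0.82 and 0.94. Without enarodustat replicate 3, the array of the other slide, that difference was 0.84 for Slc16a3 and 0.91 for Pdk1. Enarodustat and wild type shared no barcode group, so no such difference can be given for them.

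The 5 probes of Pdk1 differed from each other. The 3 probes at transcript positions 2476, 2957 and 3195 rose in enarodustat against wild type, by 1.32 ± 0.17, 1.75 ± 0.24 and 1.80 ± 0.22 (adjusted p = 0.00447, 0.00507 and 0.00344 in limma over all probes). Position 2476 is counted on another, Ensembl, transcript. The probe at position 402, on mm9 chr2:71713523-71713582, did not follow them: its group means were -0.76 ± 0.19, -0.90 ± 0.17 and -0.92 ± 0.07 (SD, n = 3) from wild type to enarodustat, and its difference of enarodustat from wild type was -0.16 ± 0.14 (adjusted p = 0.513). The last probe, at position 711, was well above background on 4 of 9 arrays, none of them wild type. Its mean was above wild type by 1.66 in ob/ob vehicle and by 1.61 in enarodustat, and it was not tested. The sequence of the flat probe is shown since it was the only one of the 5 without a rise.
Pdk1 probe at position 402: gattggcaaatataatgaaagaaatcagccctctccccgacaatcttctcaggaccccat
The reported Pdk1 values come from position 3195, the brightest probe by its mean over the 9 arrays. In wild type the flat probe was the brighter, at -0.76 against -1.68. The choice of probe thus rests on the same ob/ob arrays whose rise is reported. After normexp background correction with quantile normalization the flat probe became the brightest, and Pdk1 then read -0.11, -0.02 and -0.13 in the 3 comparisons. With the probe kept, the same correction gave 0.58 for ob/ob vehicle against wild type (adjusted p = 0.0585). The exon of each probe was not looked up, since no annotation of build mm9 was used here.

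**Figure D2:**
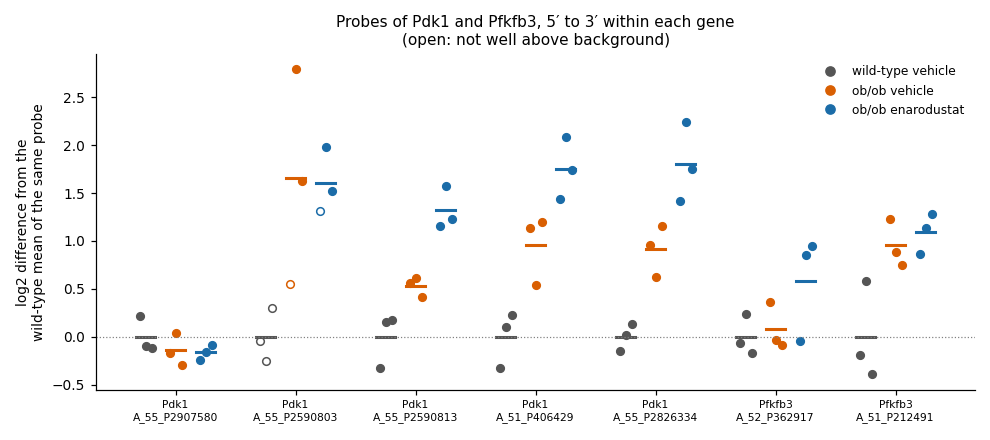
Every probe of Pdk1 and Pfkfb3, ordered 5′ to 3′ by its listed transcript position, as the log2 difference of each array (points) and group mean (bars) from the wild-type mean of that probe. The first Pdk1 probe stays near 0 in all groups, the other 4 are higher in both ob/ob groups, and the first Pfkfb3 probe is near 0 in ob/ob vehicle while the second is not.

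Pdk4, the kinase isoform that spares glucose when fatty acids are used, showed the largest rise of the members against wild type. Its levels were -1.38, -0.36 and -0.94 in wild type, 1.92, 0.38 and 2.12 in ob/ob vehicle, and 1.40, 1.35 and 1.66 with enarodustat. Both ob/ob groups lay above wild type and overlapped each other, with ob/ob vehicle replicate 2 the lowest of the 6. Pdk4 rose by 2.37 ± 0.44 in ob/ob vehicle (5.16-fold, adjusted p = 0.0154, limma) and by 2.36 ± 0.44 in enarodustat (5.14-fold, adjusted p = 0.0139) against wild type. Between the 2 ob/ob groups the difference was 0.00 ± 0.44, with a 95% interval from -1.01 to 1.00. Leaving out wild-type replicate 3 ended the first call (adjusted p = 0.0527), as did leaving out ob/ob vehicle replicate 1 (0.0605). The call against wild type with enarodustat ended without enarodustat replicate 3 (0.0503).

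Pdk2, the widely expressed isoform of the kinase, went the other way. Its levels were 2.85, 2.93 and 2.98 in wild type, 1.85, 2.18 and 1.71 in ob/ob vehicle, and 2.23, 2.06 and 2.48 with enarodustat. All 6 ob/ob arrays were below all 3 wild-type arrays, and the ob/ob groups overlapped. Pdk2 fell by 1.00 on the log2 scale in ob/ob vehicle (SE 0.16, 2.00-fold lower, adjusted p = 0.00802, limma) and by 0.66 in enarodustat (SE 0.16, 1.58-fold lower, adjusted p = 0.0337). Enarodustat against ob/ob vehicle gave 0.34 ± 0.16 (95% interval -0.02 to 0.70, adjusted p = 0.709). The call in ob/ob vehicle was lost only with the tubule covariate (adjusted p = 0.0566), and that in enarodustat was kept in 15 of 25 alternatives. Monocyte and macrophage markers rose in the same arrays in which Pdk2 fell and Pdk1 and Pdk4 rose, 9 of 10 in ob/ob vehicle against wild type. The medians of those markers were -0.42 to 0.27 in wild type, 1.48 to 1.80 in ob/ob vehicle and 1.13 to 1.64 with enarodustat. Platelet markers had medians of -3.69 to -3.12, -3.12 to -0.73 and -3.04 to -2.01 in the same order of groups. Of 5 platelet markers, 1 rose in ob/ob vehicle against wild type. The part of either marker set in the changes of Pdk2, Pdk4 and Slc2a3 was not tested.

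Slc2a3, the high-affinity glucose carrier of neurons and of blood cells, was higher in both ob/ob groups. Its levels were -1.01, -0.92 and -1.55 in wild type, -0.22, -0.63 and 0.01 in ob/ob vehicle, and -0.33, -0.60 and -0.30 with enarodustat. Both ob/ob groups lay above wild type and overlapped each other. It rose by 0.88 ± 0.22 in ob/ob vehicle (1.84-fold, adjusted p = 0.0444, limma), and 0.76 ± 0.22 in enarodustat against wild type did not pass (adjusted p = 0.0622). The call was kept in 11 of 25 alternatives. Leaving out any 1 array other than ob/ob vehicle replicate 2 ended it, with adjusted p up to 0.132. The other Slc2a3 probe stayed at background on all 9 arrays.

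Slc2a1, the basal glucose carrier, was called in no comparison. Its levels were 1.27, 1.20 and 1.16 in wild type, 0.72, 0.97 and 1.11 in ob/ob vehicle, and 0.97, 1.42 and 1.04 with enarodustat. All ob/ob vehicle arrays were below all wild-type arrays, by 0.28 on average, but the difference did not pass (-0.28 ± 0.15, adjusted p = 0.325, limma). Enarodustat against ob/ob vehicle gave 0.21 ± 0.15, with a 95% interval of -0.14 to 0.56. A rise of Slc2a1 with enarodustat of the size estimated for Slc16a3 (0.82) lay outside that interval.

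Slc16a1, which carries lactate and ketone bodies in many tissues, varied widely within groups. Its levels were -2.81, -4.18 and -1.37 in wild type, -4.13, -3.13 and -5.21 in ob/ob vehicle, and -4.60, -2.35 and -4.67 with enarodustat. The groups overlapped in every pair, and the probe was well above background on 8 of 9 arrays. The difference of ob/ob vehicle from wild type was -1.37 ± 0.87 (adjusted p = 0.386, limma), and it ran from -2.07 (without wild-type replicate 2) to -0.66 (without wild-type replicate 3) when 1 array was left out. The array with the highest level of Slc16a1 had the highest proximal tubule markers and the lowest had the lowest. Across the 9 arrays, which share groups and labelling, the Pearson correlation of Slc16a1 with the mean of those markers was 0.93. With the tubule markers as a covariate the difference was 0.37 (adjusted p = 0.730).

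**Figure D3:**
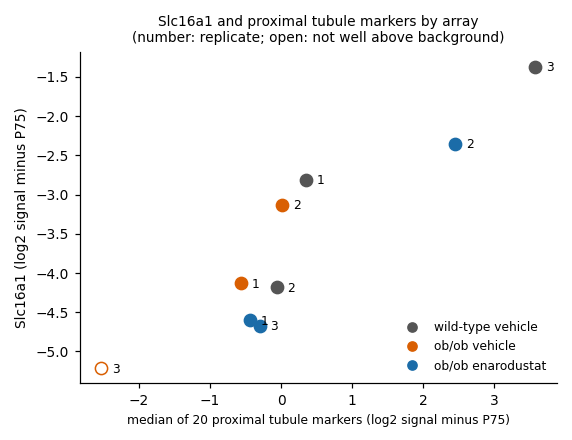
Slc16a1 level (vertical) against the median level of 20 proximal tubule markers (horizontal), both as log2 processed signal minus the array's 75th percentile, 1 point per array with its replicate number. Wild-type replicate 3 and enarodustat replicate 2 are high on both axes and ob/ob vehicle replicate 3 is low on both.

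Pfkfb3, whose enzyme favours making fructose 2,6-bisphosphate and so speeds glycolysis, was higher in both ob/ob groups. Its levels were 0.88, 1.66 and 0.68 in wild type, 2.30, 1.96 and 1.82 in ob/ob vehicle, and 1.94, 2.21 and 2.35 with enarodustat. Neither ob/ob group overlapped wild type, and wild-type replicate 2 came closest. The difference was 0.96 ± 0.26 in ob/ob vehicle (adjusted p = 0.0599, limma) and did not pass, whereas 1.10 ± 0.26 in enarodustat did (2.14-fold, adjusted p = 0.0323). Without wild-type replicate 2 the first value was 1.25 and passed (adjusted p = 0.0196), and the second call was kept in 12 of 25 alternatives. A second Pfkfb3 probe, at transcript position 1426, had group means of -3.36 ± 0.21, -3.29 ± 0.24 and -2.78 ± 0.55 (SD, n = 3), and its differences from wild type were 0.08 ± 0.27 in ob/ob vehicle and 0.59 ± 0.27 in enarodustat (adjusted p = 0.893 and 0.205). It is shown because it did not follow the brighter probe, and its 60 bases span 1414 bases of the genome, mm9 chr2:11404189-11405602 on the minus strand, so that they cross at least 1 intron.
Pfkfb3 probe at position 1426: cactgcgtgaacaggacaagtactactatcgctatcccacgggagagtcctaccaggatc
Pfkfb4, the related enzyme that is also a HIF target, was called in no comparison. Its levels were -0.01, 0.08 and -0.05 in wild type, -0.08, 0.05 and -0.24 in ob/ob vehicle, and -0.08, -0.15 and -0.35 with enarodustat. The enarodustat arrays were all below wild type, and the difference of -0.20 ± 0.12 did not pass (adjusted p = 0.335). Its 95% interval for enarodustat against ob/ob vehicle, -0.38 to 0.17, holds no rise of the size estimated for Slc16a3 or Pdk1.

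**Figure D4:**
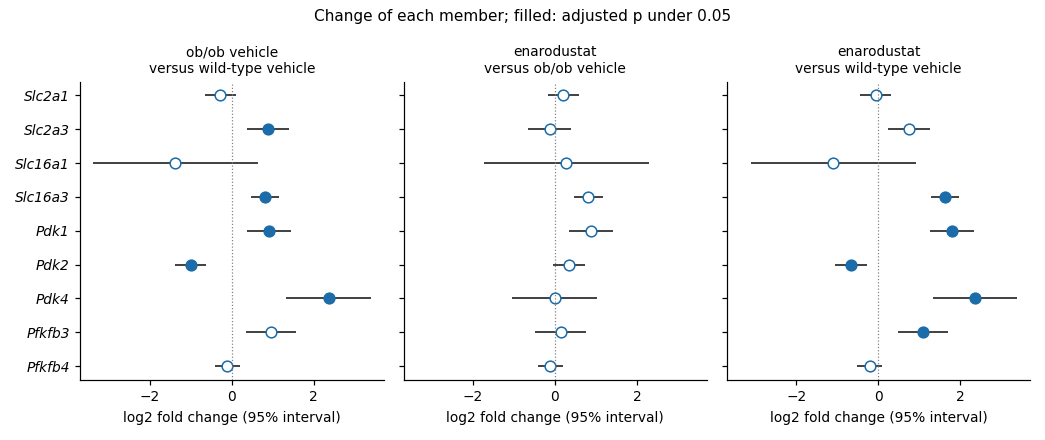
Log2 fold change of each member (points) with its 95% interval (lines) in the 3 comparisons, filled where the adjusted p is under 0.05. In the middle panel no point is filled, and the intervals of Slc16a3 (0.50 to 1.14) and Pdk1 (0.38 to 1.39) lie above 0.

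Counting arrays rather than tests, 7 of the 9 members did not overlap between ob/ob vehicle and wild type (5 higher, 2 lower), where 30.7% of all features did not. In enarodustat against wild type the count was again 5 higher and 2 lower, where 30.8% of all features did not overlap. The features whose levels ran closest to each called member over the 9 arrays were then listed, by Pearson correlation as a description. For Slc16a3 these were Aldoa (0.975), which encodes a glycolytic aldolase, Cfap74 (0.970) and Ogfr (0.968). For Pdk1 they were the tubulin gene Tuba1c (0.984), Lurap1 (0.978) and the glycolytic enzyme gene Gapdh (0.975). Slc16a3 and Pdk1 correlated with each other at 0.97. Pdk4 ran closest to Rbfox3, Cemip2 and Zfp975 (0.975 to 0.979), and Pdk2 to Btbd9 (0.983), the macrophage lectin gene Mgl2 (0.976) and Pld6 (0.971). With the mean of the monocyte and macrophage markers, which do not include Mgl2, Pdk2 correlated at -0.93. Slc2a3 ran closest to Dclre1b (0.993), S100a11 (0.976) and Nt5c (0.975), and Pfkfb3 to the matrix proteoglycan gene Dcn (0.972), Ccdc125 (0.967) and Vsig10l (0.966). These correlations hold the differences between groups as well as those within them. After the group means were removed Aldoa fell to 0.510 for Slc16a3, while Gapdh kept 0.877 for Pdk1.

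The other enzymes of glycolysis were read from a list, as were the genes that follow. Names were taken from the 8 called list genes with the smallest p in each comparison, and the others named here were chosen after their values were seen. Of 12 glycolytic enzymes measured, 0 were called in ob/ob vehicle against wild type (median log2 change 0.35), 0 in enarodustat against ob/ob vehicle (0.30), and 9 rose in enarodustat against wild type (0.62). The last count was 4 without wild-type replicate 1 or 2 or enarodustat replicate 2 or 3, and without the filter on dim probes. With array weights 6 were called in ob/ob vehicle against wild type. The smallest adjusted p values in the last comparison were those of Aldoa (0.65 ± 0.10, 0.00830), Gpi1 (0.59 ± 0.10, 0.0106) and, jointly, Pkm (0.75 ± 0.13) and Pgk1 (0.72 ± 0.13), both at 0.0115. Gapdh rose by 0.59 ± 0.13 (adjusted p = 0.0254), a call that ended without wild-type replicate 1 or 2 or enarodustat replicate 2 or 3 (adjusted p up to 0.0781). Aldoc, the brain-type aldolase, had a larger difference of 2.80 ± 0.72 (adjusted p = 0.0441), held in its 3 probes (2.40 to 2.81), but was called in 15 of 25 alternatives. The hexokinases Hk1 and Hk3 and the enolase Eno1 were not called.

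Of the genes that act on fructose 2,6-bisphosphate and phosphofructokinase, 7 were measured beside the members. Pfkfb1 rose in ob/ob vehicle (0.83 ± 0.15, adjusted p = 0.0124) and in enarodustat (0.77 ± 0.15, 0.0149) against wild type. Pfkl, the liver-type phosphofructokinase, rose in enarodustat against wild type (1.08 ± 0.14, adjusted p = 0.00433). Its difference of enarodustat from ob/ob vehicle was 0.74 ± 0.14 and did not pass (adjusted p = 0.418). At the pyruvate step, 17 genes of the dehydrogenase complex, its other regulators and the fates of pyruvate were measured, and only Ldha, which makes lactate, was called. It rose in enarodustat against wild type by 0.73 ± 0.16 (adjusted p = 0.0235, called in 18 of 25 alternatives), with group means of 5.95, 6.42 and 6.68 from wild type to enarodustat. The call of Ldha ended when wild-type replicate 1 or 2 or enarodustat replicate 2 or 3 was left out (adjusted p up to 0.0801), and the count of this list ran from 0 to 2 when 1 array was left out. Read from their brightest probes, the subunit genes Pdha1, Pdhb, Dlat, Dld and Pdhx and the remaining kinase gene Pdk3 differed by -0.23 to 0.25 in all 3 comparisons. Other probes reached -0.37 for Pdha1 and -0.42 for Pdhb in ob/ob vehicle against wild type, and none was called.

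Among 14 other genes of the glucose transporter families and their regulators measured, Slc2a6 and Slc2a13 rose in ob/ob vehicle against wild type. These and Slc2a4 rose in enarodustat against wild type. The calls of Slc2a13 were kept in 21 and 20 of 25 alternatives. The first ended when 1 of 3 single arrays was left out (ob/ob vehicle replicates 2 and 3, wild-type replicate 2; adjusted p up to 0.0582). The other ended for 4 (enarodustat replicates 1 and 2, wild-type replicates 1 and 2; adjusted p up to 0.0744). Slc2a6, the lysosomal carrier of inflammatory macrophages, had the larger change (1.69 ± 0.26, adjusted p = 0.00777, and 1.75 ± 0.26, 0.00698). Slc2a4, the insulin-regulated GLUT4, had group means of 1.44, 1.96 and 2.56 from wild type to enarodustat, and its rise against wild type was 1.12 ± 0.17 (adjusted p = 0.00714). Of 16 other monocarboxylate transporter genes and chaperones, none was called in ob/ob vehicle, and Emb, which encodes the chaperone embigin, rose in enarodustat against wild type (2.06 ± 0.54, adjusted p = 0.0460). The call of Emb was kept in 17 of 25 alternatives, and of the single arrays only wild-type replicate 3 and ob/ob vehicle replicates 1 and 3 could be left out without ending it (adjusted p up to 0.131). The count of this list ran from 0 to 3 when 1 array was left out. The list's median was -0.73 in ob/ob vehicle against wild type and 0.48 in enarodustat against ob/ob vehicle. The proximal tubule markers, which share Slc5a12 with this list, moved in the same directions, with medians of -2.38 and 1.55. The part of proximal tubule in the list was not tested.

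**Figure D5:**
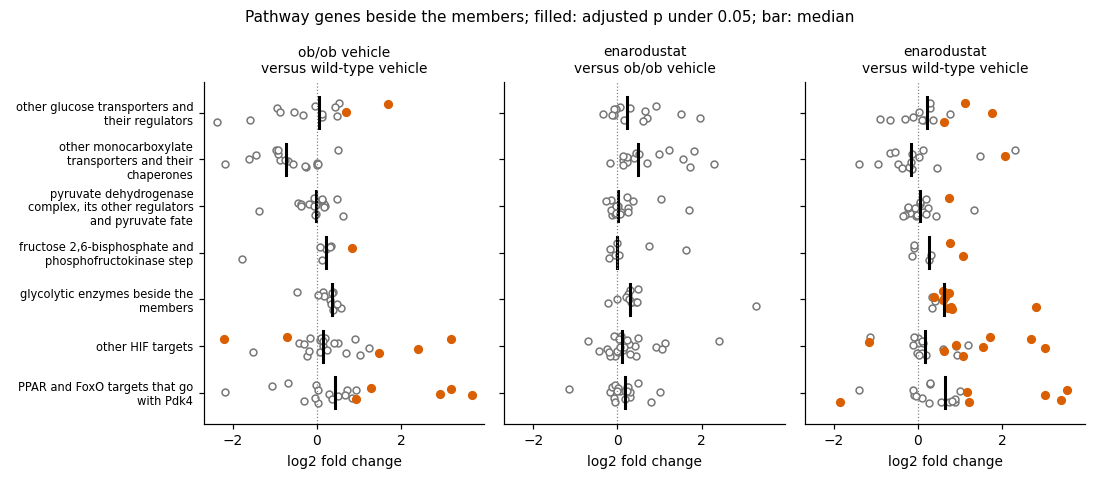
Log2 fold change of each gene (points) of 7 lists beside the members in the 3 comparisons, filled where the adjusted p is under 0.05, with a bar at the list's median. The glycolytic enzymes hold 9 filled points in the panel of enarodustat against wild type and none in the other 2.

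Other HIF targets did not share 1 direction. Of 24 measured, 3 rose and 2 fell in ob/ob vehicle against wild type, none was called in enarodustat against ob/ob vehicle, and 7 rose and 1 fell in enarodustat against wild type. The first count, 5 in all, was 1 with the tubule covariate and 9 with array weights. In the first comparison Angptl4 (3.18 ± 0.40) and Edn1 (1.48 ± 0.24) were among those that rose, and Tfrc (-2.20 ± 0.36) and Vegfa (-0.72 ± 0.18) fell. The call of Vegfa was kept in 12 of 25 alternatives and ended when any 1 wild-type or ob/ob vehicle array, or enarodustat replicate 1, was left out (adjusted p up to 0.145). Bnip3, which drives removal of mitochondria, rose in enarodustat against wild type (1.06 ± 0.16, adjusted p = 0.00670) and had group means of 2.43, 2.58 and 3.50. Its difference of enarodustat from ob/ob vehicle was 0.92 ± 0.16, close in size to those of Slc16a3 and Pdk1, and did not pass (adjusted p = 0.377). Vegfa, the podocyte's endothelial growth factor, fell in enarodustat against wild type as well (-1.16 ± 0.18, adjusted p = 0.00786), with group means of 6.02, 5.30 and 4.86. Egln3 and Car9, which are common readouts of HIF, differed by 0.42 ± 0.31 and -0.07 ± 0.13 between enarodustat and ob/ob vehicle and were not called.

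The list of PPAR and FoxO targets followed Pdk4 in part. Of 20 measured, 5 rose in ob/ob vehicle against wild type and none was called between the ob/ob groups. Among them Fabp4 rose by 2.91 ± 0.43, Plin2 by 1.29 ± 0.14 and Cpt1a by 0.92 ± 0.22, beside Angptl4, which stands in both lists. The call of Cpt1a was kept in 14 of 25 alternatives, and of the single arrays only wild-type replicate 2 and enarodustat replicates 2 and 3 could be left out without ending it (adjusted p up to 0.125). In enarodustat against wild type 5 rose, among them Fabp4 (3.40 ± 0.43), Plin2 (1.22 ± 0.14), Cpt1a (1.16 ± 0.22) and Angptl4 (3.02 ± 0.40), and Gadd45a fell (-1.84 ± 0.26, adjusted p = 0.00590). Fabp4 and Plin2 are also abundant in fat. The adipocyte markers Adipoq and Cfd did not pass the filter on dim probes, and none of the 3 measured adipocyte markers was called. Those 3 had low array medians, from -4.38 to -2.17. Monocyte and macrophage markers rose against wild type in the same arrays, 9 of 10 in ob/ob vehicle and 7 of 10 in enarodustat. The part of fat or of monocytes and macrophages in the rises of Fabp4 and Plin2 was not tested.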

How the data were processed

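Each deposited scanner file holds 1 array as spot intensity, which the authors extracted, per the file headers, with version 11.5.1.1 of Agilent Feature Extraction as a background-subtracted and detrended signal. A deposited value table holds log2 intensities that the authors scaled per array. It matched log2 processed signal minus a constant near each array's 75th percentile, to within 0.02 for 100% of probes, and was used as an alternative. Limma is named in the submitters' processing notes.

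From the scanner files, log2 processed signal minus the 75th percentile over non-control probes was taken, and probes were kept where all 3 arrays of any 1 group called them well above background. A gene was read from its brightest probe (highest mean over 9 arrays), with names from the files updated to RefSeq. All 24150 features were fitted with limma 3.58.1 (R 4.3.3) over 3 groups of 3 arrays, with Benjamini-Hochberg adjustment and a threshold of 0.05. The fit was tested on simulated data. The number of arrays limits the precision. Same-numbered samples of different groups did not deviate together (correlations of -0.31 to 0.27), so no pairing was used. The members and lists were chosen with earlier results of these data known. Named were all members, the 8 called list genes with the smallest p per comparison (some are not reported here), and the 3 features that correlate best with each called member. Alternatives covered the scaling, background correction, filter, choice of probe, left-out arrays, replicate and slide blocks, array weights and a tubule covariate.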

Additional observations from a re-analysis of the deposited data

How the results depend on the processing

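In enarodustat against ob/ob vehicle 0 features and 0 members were called by limma in the reported analysis and in all 25 alternatives. Features called in ob/ob vehicle against wild type (reported: 1823, members 5) numbered 1005 (members 3) without the filter on dim probes, 4181 with array weights and 578 (members 0) with the tubule covariate. In enarodustat against wild type (2460, members 5) they numbered 1227 (members 3) without the filter, 4528 with array weights and 3726 with the barcode group as a random block. Leaving out 1 array gave 916 to 1774 features and 2 to 5 members in the first comparison, lowest in features without ob/ob vehicle replicate 1, and 1215 to 2163 features and 3 to 5 members in the other, lowest in features when wild-type replicate 2 was the one left out. With both tubule-rich arrays left out (wild-type replicate 3, enarodustat replicate 2), 3 members were called in the first, and 1292 features and 2 members in the other. With the replicate number as a block, 3 members were called in each, and 2 of 9 arrays lay closest to their own number in both other groups.

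Pdk1 read -0.11, -0.02 and -0.13 in the 3 comparisons under normexp with quantile normalization, which takes another probe. With the tubule covariate, Slc16a1 turned from -1.37 to 0.37 in ob/ob vehicle against wild type. All other turns but 1 were in enarodustat against ob/ob vehicle. There Pdk4 was 0.02 under quantile normalization and under normexp (also with the probes kept, an alternative chosen after seeing the data), 0.13 with array weights, 0.25 with the covariate, 0.05 without both tubule-rich arrays and -0.55 to 0.32 when 1 array was left out. Slc16a1 was -0.10 with array weights, -0.79 with the covariate, -0.48 without both arrays and -0.48 to 0.79 when 1 was left out. Slc2a3 was 0.11 with the covariate and -0.30 to 0.02 when 1 was left out. Slc2a1 in enarodustat against wild type ran from -0.20 to 0.02 when 1 was left out. Apart from the probe change, the cause was not tested.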
